A study of Mus musculus with 12 samples.

Results

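The comparison described here asked how ID8 mouse ovarian cancer cells changed their transcripts after a short exposure to rebastinib. It used 6 of the 12 libraries of the series, chosen by their labels: 3 libraries of untreated ID8 cells and 3 of ID8 cells given 5 nM rebastinib for 6 h. ID8 is labelled as female C57BL6J wildtype ovarian epithelium, cell type epithelial, and is a single tumorigenic line grown from ovarian surface epithelium, so all 6 libraries share the genotype and differ in treatment. A vehicle for the control cells is not given in the sources used here. The other 6 libraries are of PMJ2R, a peritoneal macrophage line labelled C57BL6J with the v-raf and v-myc oncogenes, untreated or given the same dose for the same time, and they enter here only where 8 responses are compared between the lines. Whether replicates came from separate cultures is not in the labels, and p-values therefore reflect the spread of these libraries alone, which may be technical.

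Rebastinib is a kinase inhibitor directed at TIE2, the endothelial receptor of the angiopoietins, and at ABL1. Several pathways dealt with below work as short transcriptional circuits. The aryl hydrocarbon receptor (AhR) binds planar ligands, moves to the nucleus with its partner ARNT and switches on enzymes such as CYP1A1 together with its own repressors, AHRR and TIPARP. Bone morphogenetic proteins (BMPs) act through receptor kinases on SMAD1, SMAD5 and SMAD9, whose best known targets are the ID genes. Metallothioneins are small zinc-binding proteins whose genes are switched on by metals and by oxidative stress.

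Start-site windows of 6 genes are shown first, because 4 belong to the AhR battery and 2 are the metallothionein genes that head or nearly head the response. Each window is the RefSeq sequence of build GRCm38.p6 from 250 bases before to 50 bases after the start, 300 bases in all, read 5′ to 3′ on the strand of the gene. Capitals mark GCGTG, the core that the AhR recognises, on either strand in the first 4 windows.
Cyp1a1 (chr9:57697363-57697662, plus strand): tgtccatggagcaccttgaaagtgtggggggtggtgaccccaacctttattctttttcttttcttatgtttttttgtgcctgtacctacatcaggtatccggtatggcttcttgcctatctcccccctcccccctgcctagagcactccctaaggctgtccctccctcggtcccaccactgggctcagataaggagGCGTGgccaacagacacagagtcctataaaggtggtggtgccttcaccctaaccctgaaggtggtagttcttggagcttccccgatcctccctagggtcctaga
Ahrr (chr13:74292282-74292581, minus strand): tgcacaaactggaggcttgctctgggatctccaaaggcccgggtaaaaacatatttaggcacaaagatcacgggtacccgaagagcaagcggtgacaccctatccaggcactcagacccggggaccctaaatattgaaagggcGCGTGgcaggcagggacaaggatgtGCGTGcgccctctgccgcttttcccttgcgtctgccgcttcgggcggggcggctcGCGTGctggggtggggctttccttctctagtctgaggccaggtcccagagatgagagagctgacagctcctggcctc
Tiparp (chr3:65528197-65528496, plus strand): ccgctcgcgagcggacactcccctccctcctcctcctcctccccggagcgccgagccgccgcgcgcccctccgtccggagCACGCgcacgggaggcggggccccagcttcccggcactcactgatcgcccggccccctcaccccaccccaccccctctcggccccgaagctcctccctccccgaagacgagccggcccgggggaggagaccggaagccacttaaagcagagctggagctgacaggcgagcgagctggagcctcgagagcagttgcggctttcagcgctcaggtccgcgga
Cyp1b1 (chr17:79715012-79715311, minus strand): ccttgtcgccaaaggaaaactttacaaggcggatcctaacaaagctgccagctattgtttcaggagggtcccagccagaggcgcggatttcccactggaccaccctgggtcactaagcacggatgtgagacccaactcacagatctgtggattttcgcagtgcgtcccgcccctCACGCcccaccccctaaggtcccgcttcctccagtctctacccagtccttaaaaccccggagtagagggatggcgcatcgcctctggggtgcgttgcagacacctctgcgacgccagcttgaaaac
In the next windows capitals mark TGCACNC or TGCGCNC, 2 spellings of the metal response element core, on either strand, a search chosen after the metallothionein values had been seen.
Mt1 (chr8:94178839-94179138, plus strand): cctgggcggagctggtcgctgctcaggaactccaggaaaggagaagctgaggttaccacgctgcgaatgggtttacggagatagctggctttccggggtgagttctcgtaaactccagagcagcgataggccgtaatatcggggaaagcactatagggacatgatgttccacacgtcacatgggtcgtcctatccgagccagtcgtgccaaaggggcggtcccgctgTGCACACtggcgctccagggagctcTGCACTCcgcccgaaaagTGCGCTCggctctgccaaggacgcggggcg
Mt2 (chr8:94172368-94172667, plus strand): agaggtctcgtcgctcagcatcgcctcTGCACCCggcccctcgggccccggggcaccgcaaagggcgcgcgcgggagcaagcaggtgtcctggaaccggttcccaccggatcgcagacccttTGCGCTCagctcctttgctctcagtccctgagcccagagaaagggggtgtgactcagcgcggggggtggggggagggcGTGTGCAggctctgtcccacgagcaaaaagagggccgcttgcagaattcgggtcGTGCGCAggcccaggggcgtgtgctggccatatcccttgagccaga
GCGTG occurred 3 times in the window of Ahrr and once in each of Cyp1a1, Tiparp and Cyp1b1. Of 12 AhR battery genes with a window, 8 held it, and so did 51.8% of the 10130 windows of tested genes, so the letters alone are common. The metal response element core occurred 3 times in the window of Mt1 and 4 times in that of Mt2. At least 1 copy lay in 36.5% of all windows, at least 3 copies in 3.35% and at least 4 in 0.859%. Of the other motifs searched on both strands, GGCGCC, a SMAD-binding core, lay in 9 of 27 BMP pathway windows and in 21.5% of all, and TGACNNNGC, the antioxidant response element core, in 11 of 30 windows of NRF2 and glutathione genes and in 14.8% of all. A match is a description of the letters and not of binding.

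The libraries held 19057954 to 24971090 counts, and control and rebastinib totals overlapped. Genes with at least 1 count numbered 21809 to 22058 in control and 19998 to 20765 with rebastinib, or 21403.7 to 21584.5 and 19754.8 to 20102.5 when each library was brought to 19057954 counts by calculation. All 12 markers of the line had counts in every library. In CPM, the usual counts scaled to a common library total, Krt19, an epithelial keratin gene, stood at 1608 ± 65.6 in control and 692 ± 21.9 with rebastinib, Wt1, the Wilms tumour factor gene, at 576 ± 25.2 and 115 ± 15.6, and Msln, the mesothelin gene, at 256 ± 9.15 and 379 ± 18.3 (mean ± SD, n = 3, as throughout). Of 11 macrophage markers, 6 had no count in any library, among them Adgre1, Itgam, Lyz2 and Spi1, and the list summed to 16.9 to 18.4 CPM in control and 29.1 to 32.8 with rebastinib. Of 9 fibroblast markers, 2 had no count, and the list summed to 264 to 281 and 127 to 171 CPM. The 8 endothelial markers summed to at most 1.08 CPM in any library and the 7 T and B cell markers to at most 0.298. The part of such cells in the results was not tested.

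The composition of the libraries moved with treatment, and it bears on every fold change below. Cytosolic ribosomal protein genes took 4.88% ± 0.409 of counts in control and 9.66% ± 1.05 with rebastinib, and mitochondrially encoded genes 3.02% ± 0.114 and 4.94% ± 0.195. Genes that overlap ribosomal RNA took 0.211% ± 0.129 and 1.23% ± 0.319, and the ferritin genes Fth1 and Ftl1 0.417% ± 0.0164 and 1.13% ± 0.137. The 50 most abundant genes of a library took 12.4% ± 0.287 in control and 18.5% ± 0.791 with rebastinib. Protein-coding transcripts under 1000 bases took 3.70% ± 0.306 and 7.46% ± 0.859, whereas those of 6000 bases or more took 17.2% ± 0.988 and 10.7% ± 1.01. The groups did not overlap in any of these shares, and the exact two-sided permutation test gave p = 0.1 for each, the smallest value that 3 against 3 libraries allow.

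**Figure D1:**
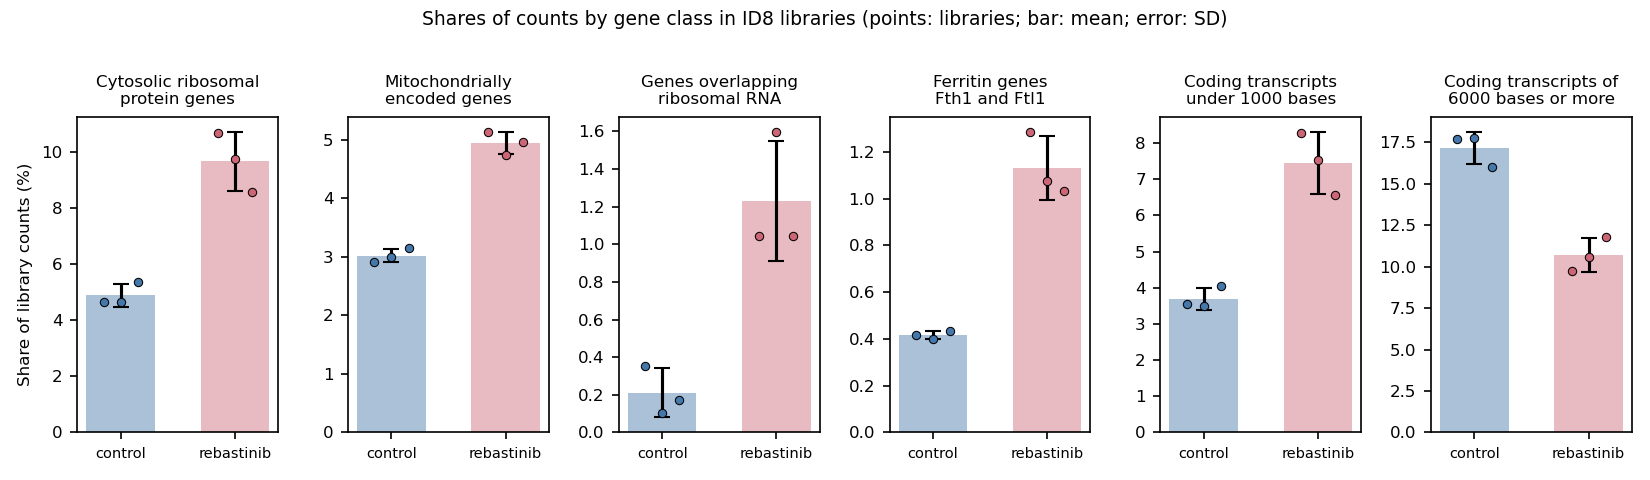
Share of library counts (%) taken by 6 gene classes in the 3 control and 3 rebastinib libraries of ID8. Points are libraries, bars group means and error bars SDs. Ribosomal protein genes went from 4.88% to 9.66%, and coding transcripts of 6000 bases or more from 17.2% to 10.7%.

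Most expressed genes passed the test. Of 14829 genes tested with edgeR's quasi-likelihood test at an adjusted p under 0.05, 5687 (38.4%) were higher with rebastinib and 6230 (42%) lower, 80.4% in all. Both shares are the background for counts of list members called higher and lower below, where no other setting is named. At a minimum of 2-fold, 1584 (10.7%) were higher and 2773 (18.7%) lower. The median log2 fold change was 0.86 among genes called higher and -1.19 among those called lower, and the median of all genes was -0.07. The groups did not overlap for 82.2% of genes. Scaling by library totals alone, which does not correct for the shift in composition, moved the median to -0.50 and the split to 3540 higher and 8475 lower, or 635 and 4153 at 2-fold. Small rises therefore depend on the scaling. For list counts and medians on library totals alone below, this split of 14829 genes and this median are the background. Levels below are CPM scaled with the TMM factors of edgeR, and a signed value in parentheses is the log2 fold change, rebastinib minus control. Fewer cells of a kind and less RNA per cell cannot be told apart in such libraries.

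The direction of a gene's change went with the length and the level of its transcript. Over 8 bins of transcript length the median log2 fold change went from 0.67 for genes under 1600 bases to -0.49 for those of 6371 bases or more. Over 8 bins of control level it went from -0.71 in the lowest bin to 0.25 in the highest. Bins of GC content differed little, with medians from -0.14 to -0.04. When each library was freed of smooth trends with transcript length and GC content, the median of all genes became 0.12 and the split 6707 higher (45.2%) to 5458 lower (36.8%). That median and those shares are the background for list values with trends removed below. Of the main calls, 10317 kept their direction and 337 changed it. Values with these trends removed are given below for many of the lists and genes, and whether length itself or something tied to it moved the counts was not tested.

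**Figure D2:**
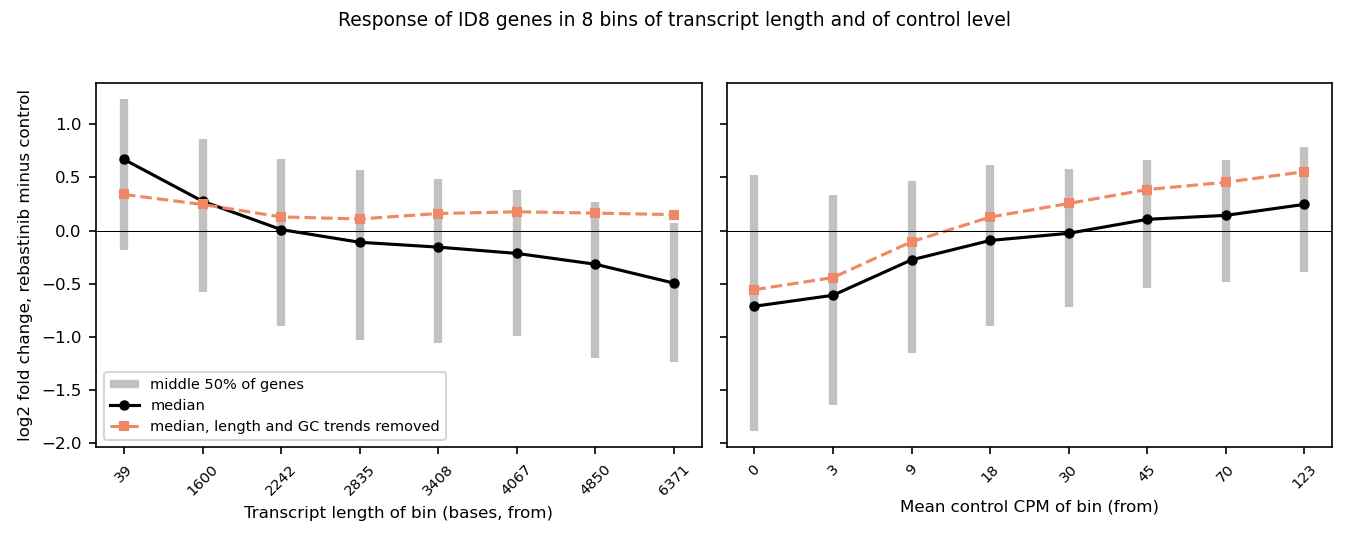
Median log2 fold change of ID8 genes, rebastinib minus control, in 8 bins of transcript length (left) and 8 bins of mean control CPM (right). Grey bars span the middle 50% of genes, black points are medians and orange squares are medians after removal of length and GC trends. The length bins run from 0.67 to -0.49 and the level bins from -0.71 to 0.25.

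RNA classes had medians far apart in the same comparison. Small nucleolar RNAs, which guide ribosomal RNA modification, were higher in 48 of 69 tested genes and lower in 1, with a median of 1.88. Processed pseudogenes, whose reads may stem from parent genes of near-identical sequence, were higher in 385 of 535 with a median of 1.33. In contrast, 159 of 300 lincRNA genes were lower and 77 higher (median -0.71), and 449 of 945 antisense genes were lower and 206 higher (median -0.43). Counts of antisense genes are uncertain, since the strand setting of the counting is not given in the sources used here. The same holds for genes that share exons with a neighbour of at least 50% of their own counts, which among those named below are Mt2 (with Gm45774), Erbb2 (Mien1), Elk1 (Uxt), Fstl3 (Prss57), Setdb1 (Cers2), Cdc45 (Ufd1), Rbl2 (Aktip), Eng (Fpgs), Ugt1a6a and Ugt1a6b (Ugt1a7c and Gm20528) and others said at their values.

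The largest rise among protein-coding genes at 20 CPM or more was that of Mt2, a metallothionein gene (chromosome 8, 94172664 to 94173568). It stood at 0.193, 0.154 and 0.0743 CPM in control and 64.9, 39.6 and 35.7 CPM with rebastinib. Every rebastinib library lay far above every control library, where 11 counts were found in all, and the log2 fold change was 8.33, SE 0.344, adjusted p = 6.07e-11. Mt1, its neighbour (chromosome 8, 94179082 to 94180327), stood at 19.8, 20.95 and 24.6 CPM in control and 345, 255 and 226 CPM with rebastinib and rose by 3.66 (SE 0.143, adjusted p = 3.82e-11). Slc14a1, a urea transporter gene, went from 1.002 ± 0.202 to 74.9 ± 5.71 CPM (6.21), and Cep295nl from 3.58 ± 0.415 to 263 ± 32.1 CPM (6.20). Lgals3, the galectin-3 gene, rose from 48.2 ± 5.13 to 414 ± 68.4 CPM (3.10, SE 0.117). Lars2, the mitochondrial leucyl-tRNA synthetase gene, stood at 186, 93.6 and 137 CPM in control and 1539.6, 1849.7 and 1171 CPM with rebastinib, with a wide SE of 0.283 on its rise of 3.45. The share of genes that overlap ribosomal RNA was also lowest in control replicate 2 (0.106%) and highest in rebastinib replicate 2 (1.60%). Whether Lars2 took up reads of ribosomal RNA was not tested, so its level is uncertain. Ankmy1 rose by 3.41, but it shares exons with Gpc1 on the opposite strand, and reads of the pair cannot be told apart without strand. The other large rises were those of Aldh3a1, Ahrr, Atoh8, Id2 and Id3, taken up below.

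Among the deepest falls, Mdc1, which encodes a scaffold of the DNA damage checkpoint (chromosome 17, 35841515 to 35859670), stood at 194, 188 and 178 CPM in control and 5.497, 6.09 and 7.29 CPM with rebastinib (log2 fold change -4.88, SE 0.102, adjusted p = 4.10e-13). Gdf6, a BMP ligand gene, went from 47.9 ± 1.43 to 1.68 ± 0.450 CPM (-4.80), and Chac1, a glutathione-degrading enzyme gene, from 81.9 ± 4.66 to 3.29 ± 0.177 CPM (-4.64). Rnf213, a giant ubiquitin ligase gene that interferon induces (chromosome 11, 119393100 to 119487418), was the most abundant of them. It stood at 1382, 1358 and 1137 CPM in control and 61.9, 79.8 and 92.2 CPM with rebastinib, a log2 fold change of -4.05 that became -3.14 with length and GC trends removed. Hmcn1, which encodes the matrix protein hemicentin, fell (-4.53), as did Ppp1r10, which encodes a regulator of protein phosphatase 1 in transcription termination (-4.07). Zc3h4, which encodes a factor that ends unproductive transcription, also fell (-4.56). The adhesion gene Igsf9 (-4.66), Elfn2 (-4.49), Plekha6 (-4.37) and the recycling endosome gene Rab11fip3 (-4.16) were also among the 12 deepest. With the trends removed the 12 lay between -4.68 and -3.14.

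Most AhR target genes and both repressor genes rose, while the receptor gene did not pass the test. Of 17 genes of the AhR battery 14 were tested, 10 were higher and none lower (background 38.4% and 42%), or 8 and 4 on library totals alone and 9 and 2 with upper quartile factors, with a median of 0.88 against -0.07 for all genes. Cyp1a1, the classic AhR-induced oxidase gene, had 1 count over the control libraries and 784 with rebastinib, a ratio of 814 with a 95% counting interval from 146 to 32200. Its level went from at most 0.0387 CPM in a control library to 15.6, 13.7 and 12.7 CPM. Ahrr, the receptor's repressor gene, stood at 3.71, 3.43 and 3.97 CPM in control and 56.6, 56.2 and 60.4 CPM with rebastinib (3.96, SE 0.0997, adjusted p = 1.69e-12). Tiparp, which encodes the ADP-ribosylating repressor, stood at 21.4, 20.1 and 19.3 CPM in control and 81.6, 95.2 and 88.6 CPM with rebastinib (2.13, SE 0.0838, adjusted p = 4.06e-11). None of these groups overlapped. Aldh3a1, an aldehyde dehydrogenase gene, stood at 4.02, 3.704 and 3.56 CPM in control and 116, 74.2 and 68.4 CPM with rebastinib, a rise of 4.51 with the spread of its rebastinib libraries well above that of the controls. Nqo1, a quinone reductase gene that NRF2 also drives, stood at 40.3, 41.7 and 45.9 CPM in control and 394, 354 and 333 CPM with rebastinib (3.08), and Gsta1, a glutathione transferase gene with close paralogs that may share its reads, at 0.193, 0.232 and 0.223 CPM in control and 5.89, 4.49 and 3.35 CPM with rebastinib (4.36).

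Other members of the AhR battery changed less or did not pass the test. Xdh, the xanthine dehydrogenase gene, went from 3.19 ± 0.631 to 6.31 ± 0.949 CPM (0.98). The partner gene Arnt rose by 0.46 (adjusted p = 2.81e-05), a value that library totals alone reduce to 0.03. Ugt1a6b rose by 0.52 at under 3 CPM, shares exons with other Ugt1a genes and lost its call without any 1 of 5 libraries. Ahr itself stood at 26.9, 27.9 and 23.1 CPM in control and 22.5, 24.3 and 25.04 CPM with rebastinib, groups that overlap (-0.11, adjusted p = 0.28). Cyp1b1, an AhR-induced oxidase gene in many tissues, stood at 372, 369.9 and 346 CPM in control and 288, 325 and 372 CPM with rebastinib, also overlapping (-0.14, adjusted p = 0.142), although its window above holds the same core as that of Cyp1a1. With length and GC trends removed both passed the test, at 0.32 for Ahr and 0.26 for Cyp1b1. Library totals alone called both lower, at -0.55 and -0.57, as did upper quartile factors, at -0.23 and -0.25, so their direction depends on the processing. Ptges3 and Ugt1a6a did not pass the test, and Arnt2, Cyp1a2 and Lrat had too few counts to be tested.

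**Figure D3:**
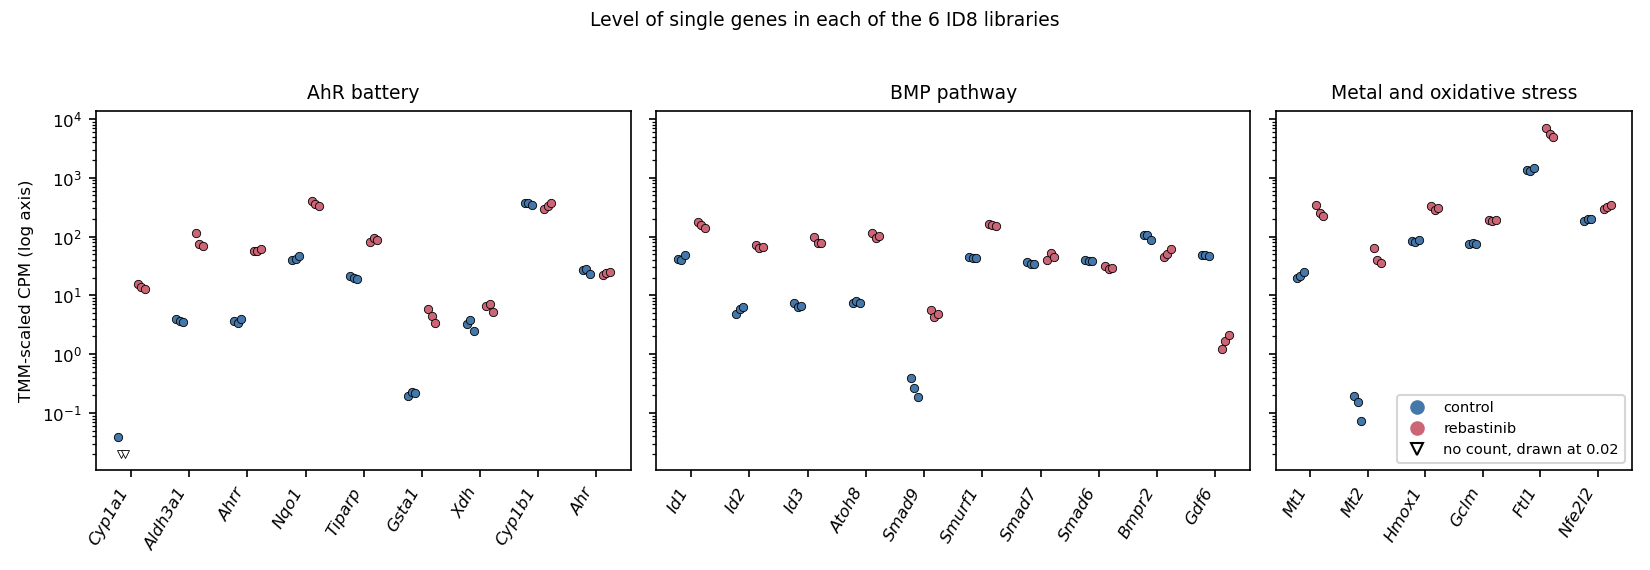
TMM-scaled CPM on a log axis of 25 genes of the AhR battery, the BMP pathway and the response to metal and oxidative stress in the 3 control and 3 rebastinib libraries of ID8. Each point is 1 library, and open triangles mark libraries with no count. Control and rebastinib points lie apart for every gene shown except Cyp1b1 and Ahr. Smad7 is higher with rebastinib here but turns to -0.04 on library totals alone, and Smad6 turns to -0.02 with length and GC trends removed.

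Within the BMP pathway 4 of 7 tested target genes were higher and 2 lower, and 4 of 7 genes listed as ligands were lower and 2 higher. Of 42 genes of the pathway 34 were tested, and 15 were higher and 11 lower, beside 38.4% and 42% over all genes. On library totals alone 11 and 18 were called. The median was 0.11, or 0.45 with length and GC trends removed and -0.32 by library totals alone. Among the targets, Id1 stood at 41.6, 40.2 and 48.6 CPM in control and 178, 158 and 139.6 CPM with rebastinib (1.87, SE 0.0982, adjusted p = 5.88e-10). Id2 stood at 4.91, 5.94 and 6.42 CPM in control and 71.3, 63.4 and 66.8 CPM with rebastinib (3.54) and Id3 at 7.55, 6.37 and 6.72 CPM in control and 98.3, 77.3 and 78.01 CPM with rebastinib (3.62). These genes encode inhibitors of helix-loop-helix transcription factors, and in each of them all rebastinib libraries lay above all controls. Atoh8, a helix-loop-helix factor gene that BMP signals induce, stood at 7.39, 7.87 and 7.31 CPM in control and 115, 92.8 and 100.2 CPM with rebastinib (3.77). Other listed targets went down: Hey1, also a Notch target, fell from 1.55 ± 0.0327 to 0.298 ± 0.107 CPM (-2.34), and Sp7, the osterix gene, had 50 counts in control and 3 with rebastinib, 16.1-fold lower (95% counting interval 5.18 to 80.4). Dlx3 did not pass the test, and Id4, Msx1 and Msx2 were not tested.

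The transducers of the BMP pathway moved in different directions. Smad9 stood at 0.387, 0.270 and 0.186 CPM in control and 5.55, 4.37 and 4.87 CPM with rebastinib (4.11, SE 0.269, adjusted p = 4.74e-09). Smad1 rose from 5.48 ± 0.615 to 10.5 ± 0.833 CPM (0.94), Smad5 fell from 70.1 ± 3.198 to 44.5 ± 5.26 CPM (-0.65, or -0.17 with trends removed), and the shared partner Smad4 did not pass the test (0.06). Of the receptors, Bmpr2 stood at 108, 107 and 85.8 CPM in control and 44.3, 49.95 and 62.4 CPM with rebastinib, a log2 fold change of -0.94 that shrank to -0.19 with length and GC trends removed, and the type I receptor gene Acvr1 rose from 41.5 ± 0.344 to 60.6 ± 4.08 CPM (0.55). Acvr2b rose by 0.88 and Acvr2a by 0.57, the latter with exons shared with Orc4 on the opposite strand. On library totals alone the calls of Acvr1 (0.12) and Acvr2a (0.14) were lost. Bmpr1a did not pass the test (0.16), although with trends removed it and Smad4 did, at 0.58 and 0.32. Bmpr1b (-0.69) and Eng (0.60), both under 3 CPM, passed it, but Bmpr1b lost its call with trends removed (-0.31), in DESeq2 and without control replicate 2 or rebastinib replicate 3, and Eng without any 1 of 5 libraries. Acvrl1 was not tested.

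Among genes listed as BMP ligands, Gdf6 stood at 48.6, 48.9 and 46.3 CPM in control and 1.25, 1.66 and 2.15 CPM with rebastinib. Its fall was the second deepest of all genes named by size. Bmp2 fell from 6.26 ± 0.814 to 2.502 ± 0.163 CPM (-1.32), Gdf11 from 5.52 ± 0.630 to 2.29 ± 0.118 CPM (-1.27) and Bmp7 from 0.548 ± 0.231 to 0.0708 ± 0.0636 CPM (-2.85). Bmp4 stood at 52.6, 49.9 and 53.7 CPM in control and 57.1, 50.998 and 51.6 CPM with rebastinib, overlapping groups that did not pass the test (0.03). Bmp8b rose by 0.94 and Bmp6 by 1.15, but each shares exons with a far more abundant gene on the opposite strand, Ppie and Txndc5, so their reads are uncertain. Of the inhibitors, Smurf1, a ubiquitin ligase gene for SMAD proteins, stood at 45.3, 43.9 and 42.7 CPM in control and 165, 156 and 150.3 CPM with rebastinib (1.84, SE 0.0709, adjusted p = 3.47e-11), and the antagonist gene Grem1 rose from 90.9 ± 3.03 to 177 ± 16.7 CPM (0.96). Smad6 stood at 40.4, 38.7 and 37.9 CPM in control and 30.9, 27.5 and 29.7 CPM with rebastinib (-0.41), a fall that was lost with trends removed (-0.02). Smad7 stood at 37.3, 33.6 and 33.7 CPM in control and 40.1, 51.7 and 45.6 CPM with rebastinib (0.39), a rise that library totals alone turn to -0.04. Fstl3 fell at under 1 CPM (-2.41), and Chrd, Smurf2, Fst and Bambi did not pass the test, of which Smurf2 (0.26) and Fst (0.78) did with trends removed.

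Genes of the NRF2 response, which protects cells from oxidants, were mostly higher. Of 36 tested members 27 were higher and 5 lower, with a median of 0.78 (38.4% and 42% over all genes), or 22 and 10 on library totals alone, and 16 were higher at a 2-fold minimum. The list includes Nqo1, Mt1 and Mt2. Hmox1, the haem oxygenase gene, stood at 84.7, 79.1 and 88.1 CPM in control and 329, 278 and 305 CPM with rebastinib (1.86, SE 0.0788, adjusted p = 8.05e-11). Gclm, which encodes the modifier subunit of glutathione synthesis, rose from 75.2 ± 1.25 to 188 ± 4.96 CPM (1.32), and Ftl1, the ferritin light chain gene, from 1349.9 ± 84.4 to 5855 ± 1071 CPM (2.12). Ftl1 shares exons with Gm10252 on the opposite strand, and ferritin has many pseudogenes, so its level is uncertain. The regulator Nfe2l2, which encodes NRF2, rose from 193 ± 5.65 to 317 ± 24.3 CPM (0.72) and its partner Mafk from 50.1 ± 1.33 to 96.2 ± 5.58 CPM (0.94), while the related Nfe2l1 fell from 303 ± 5.48 to 137 ± 9.62 CPM (-1.15).

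TIE2, encoded by Tek, and its relative TIE1 went undetected in ID8. Tek and Tie1 had 0 counts in either group, so levels of up to 0.0443 CPM (control) and 0.0460 CPM (rebastinib) are possible. The angiopoietin genes were near that floor, with 8 and 1 counts for Angpt1 in control and rebastinib, 20 and 21 for Angpt2 and 5 and 0 for Angpt4. Of 32 tested kinase genes 6 were higher and 19 lower (median -0.37), which became 15 and 12 with length and GC trends removed (median 0.13). Erbb3, the neuregulin receptor gene, fell from 14.9 ± 1.25 to 1.33 ± 0.674 CPM (-3.44) and Erbb2 from 33.2 ± 2.16 to 10.4 ± 1.48 CPM (-1.66). Flt4, the lymphatic VEGF receptor gene, fell from 89.6 ± 5.69 to 21.2 ± 2.699 CPM (-2.08), Tyro3 from 27.6 ± 2.47 to 7.65 ± 0.443 CPM (-1.85) and the insulin receptor gene Insr from 44.7 ± 5.31 to 14.7 ± 2.59 CPM (-1.60). Within the ABL and SRC families 2 of 8 tested genes were higher and 3 lower (median -0.13), or 6 and 1 with trends removed. The SRC family gene Lyn rose from 18.9 ± 1.01 to 31.4 ± 2.31 CPM (0.73). Abl2 rose by 0.49 (adjusted p = 5.67e-05), or by 0.06 on library totals alone.

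Transcriptional targets of the ERK pathway were more often lower than higher, and no difference between their roles was tested. Of 31 tested genes 9 were higher and 17 lower (median -0.32, with 38.4% and 42% over all genes), or 11 and 14 with trends removed. Among its transcription factors 7 of 9 were lower: Egr1, an immediate-early zinc finger gene, stood at 72.2, 69.4 and 65.98 CPM in control and 8.39, 15.6 and 10.8 CPM with rebastinib (-2.59, SE 0.148, adjusted p = 1.33e-09), and Elk1 fell (-1.37). Sprouty and spred genes were lower in 3 of 7 and higher in 0, and 4 did not pass the test (median -0.06). With trends removed 2 were lower and 3 higher. Spry3, a sprouty feedback inhibitor gene, stood at 6.42, 6.75 and 6.24 CPM in control and 0.283, 0.123 and 0.179 CPM with rebastinib (-5.01), and Spred3 fell from 8.77 ± 0.374 to 1.83 ± 0.202 CPM (-2.25). Of the MAP kinase phosphatase genes 3 of 9 were higher and 5 lower (median -0.32), the higher ones being Dusp4 (0.97), Dusp7 (1.03) and Dusp14 (1.20). Among other targets 4 of 6 were higher and 2 lower, and the higher ones included the cyclin D1 gene Ccnd1, from 159 ± 5.79 to 333 ± 15.2 CPM (1.06), and the ephrin receptor gene Epha2 (0.67).

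Immediate-early factor genes were counted by family, and families were not tested against each other. Of 35 tested, 15 were higher and 19 lower (38.4% and 42% over all genes), and 2 and 8 passed the 2-fold minimum. The balance was 16 and 13 with trends removed and 7 and 20 on library totals alone. Of 9 AP-1 genes, which encode FOS, JUN and related leucine zippers, 7 were lower. Jun went from 40.6 ± 0.604 to 7.94 ± 1.28 CPM (-2.37) and Jund from 237 ± 10.9 to 59.5 ± 9.41 CPM (-1.99), whereas Fosl1 rose from 14.5 ± 1.03 to 29.8 ± 3.5000 CPM (1.03). Fosl1 shares exons with Ccdc85b and Jund with Gm11175, both on the opposite strand. Btg2, an antiproliferative gene, fell from 44.7 ± 3.65 to 6.55 ± 0.650 CPM (-2.76), and Zfp36l1, which encodes a decay factor for AU-rich messages, from 257 ± 15.3 to 53.7 ± 6.54 CPM (-2.26). Of the Krüppel-like factor genes, 6 of 11 were higher and 4 lower: Klf5 went from 25.3 ± 2.38 to 95.4 ± 9.99 CPM (1.92), Klf16 from 26.005 ± 1.17 to 81.9 ± 4.51 CPM (1.65) and Klf3 from 121 ± 6.54 to 233 ± 16.4 CPM (0.95).

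In the TGF-beta, Wnt, Notch and Hippo pathways, members were called in both directions, beside 38.4% higher and 42% lower over all genes. In the TGF-beta list 6 of 25 were higher and 15 lower (median -0.37), or 9 and 11 with trends removed. The ligand gene Tgfb3 stood at 127, 129 and 122 CPM in control and 19.4, 19.4 and 24.99 CPM with rebastinib (-2.56, SE 0.0967, adjusted p = 2.78e-11), Tgfb2 also fell (-1.15), as did the transducer Smad3 from 126 ± 2.53 to 45.1 ± 4.41 CPM (-1.48) and the target Ccn2, from 74.5 ± 1.08 to 24.2 ± 5.18 CPM (-1.62). Ltbp1, which encodes a protein that stores latent TGF-beta in the matrix, rose from 54.4 ± 0.631 to 151 ± 10.3 CPM (1.47), and the corepressor gene Ski from 85.9 ± 4.04 to 218 ± 5.04 CPM (1.34).

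In the Wnt pathway 9 of 42 tested genes were higher and 26 lower (median -0.66), or 15 and 20 with trends removed. Of its 13 receptor genes 9 were lower and 2 higher, or 7 and 6 with trends removed. The frizzled gene Fzd1 went from 26.97 ± 1.31 to 3.35 ± 0.130 CPM (-3.005) and Fzd4 from 52.7 ± 1.92 to 11.5 ± 1.12 CPM (-2.19). Fzd5 fell from 67.7 ± 6.08 to 18.8 ± 3.99 CPM (-1.84) and Fzd2 from 25.5 ± 0.735 to 7.74 ± 1.16 CPM (-1.71). Axin2, a feedback target of beta-catenin, rose from 3.06 ± 0.428 to 10.002 ± 1.39 CPM (1.72), while Sp5 (-1.92) and Dkk2 (-1.79) fell. Of 26 Notch pathway genes 10 were higher and 11 lower, or 11 and 9 with trends removed. The shares of 38.5% and 42.3% are close to those over all genes (38.4% and 42%). The ligand genes Dll1 (-1.77) and Jag1 (-1.36) fell, the nuclear effector gene Rbpj rose from 40.4 ± 3.34 to 92.9 ± 4.37 CPM (1.20), and the target Nrarp fell from 2.45 ± 0.325 to 0.357 ± 0.0736 CPM (-2.77), with exons shared with Gm38287 on the opposite strand. In the Hippo pathway, Tead4, which encodes a DNA-binding partner of YAP, rose from 10.1 ± 0.245 to 38.8 ± 1.72 CPM (1.95). The tumour suppressor gene Nf2 fell from 109.8 ± 0.340 to 42.2 ± 2.33 CPM (-1.38) and the kinase gene Stk3 from 82.003 ± 3.89 to 34.7 ± 3.58 CPM (-1.24). YAP-TEAD target genes were lower in 10 of 17 and higher in 2, or 9 and 6 with trends removed.

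The scaling and the trends turned the median sign of several lists, and they also moved the median of all genes. That median was -0.07, and it became -0.50 on library totals alone and 0.12 with trends removed. A change of sign is thus not in itself a difference from all genes. On library totals alone the medians of aminoacyl-tRNA synthetases, ATF4 and unfolded protein response, autophagy, BCL2 family, BMP pathway, chaperones, replication origin, polymerase II with Mediator and Integrator, splicing and SRF contractile genes became negative. With length and GC trends removed the lists of chromatin modifiers, the circadian clock, cyclins, epithelial-mesenchymal state, integrins, kinases, message decay, NF-kB, Notch, ovarian surface identity, PARP, solute carriers and YAP-TEAD changed from negative to positive medians. The other lists shown kept their sign under both settings. Of the medians that became positive, those of NF-kB (0.02), ovarian surface identity (0.05), PARP (0.06) and solute carriers (0.06) lay below the 0.12 of all genes.

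**Figure D4:**
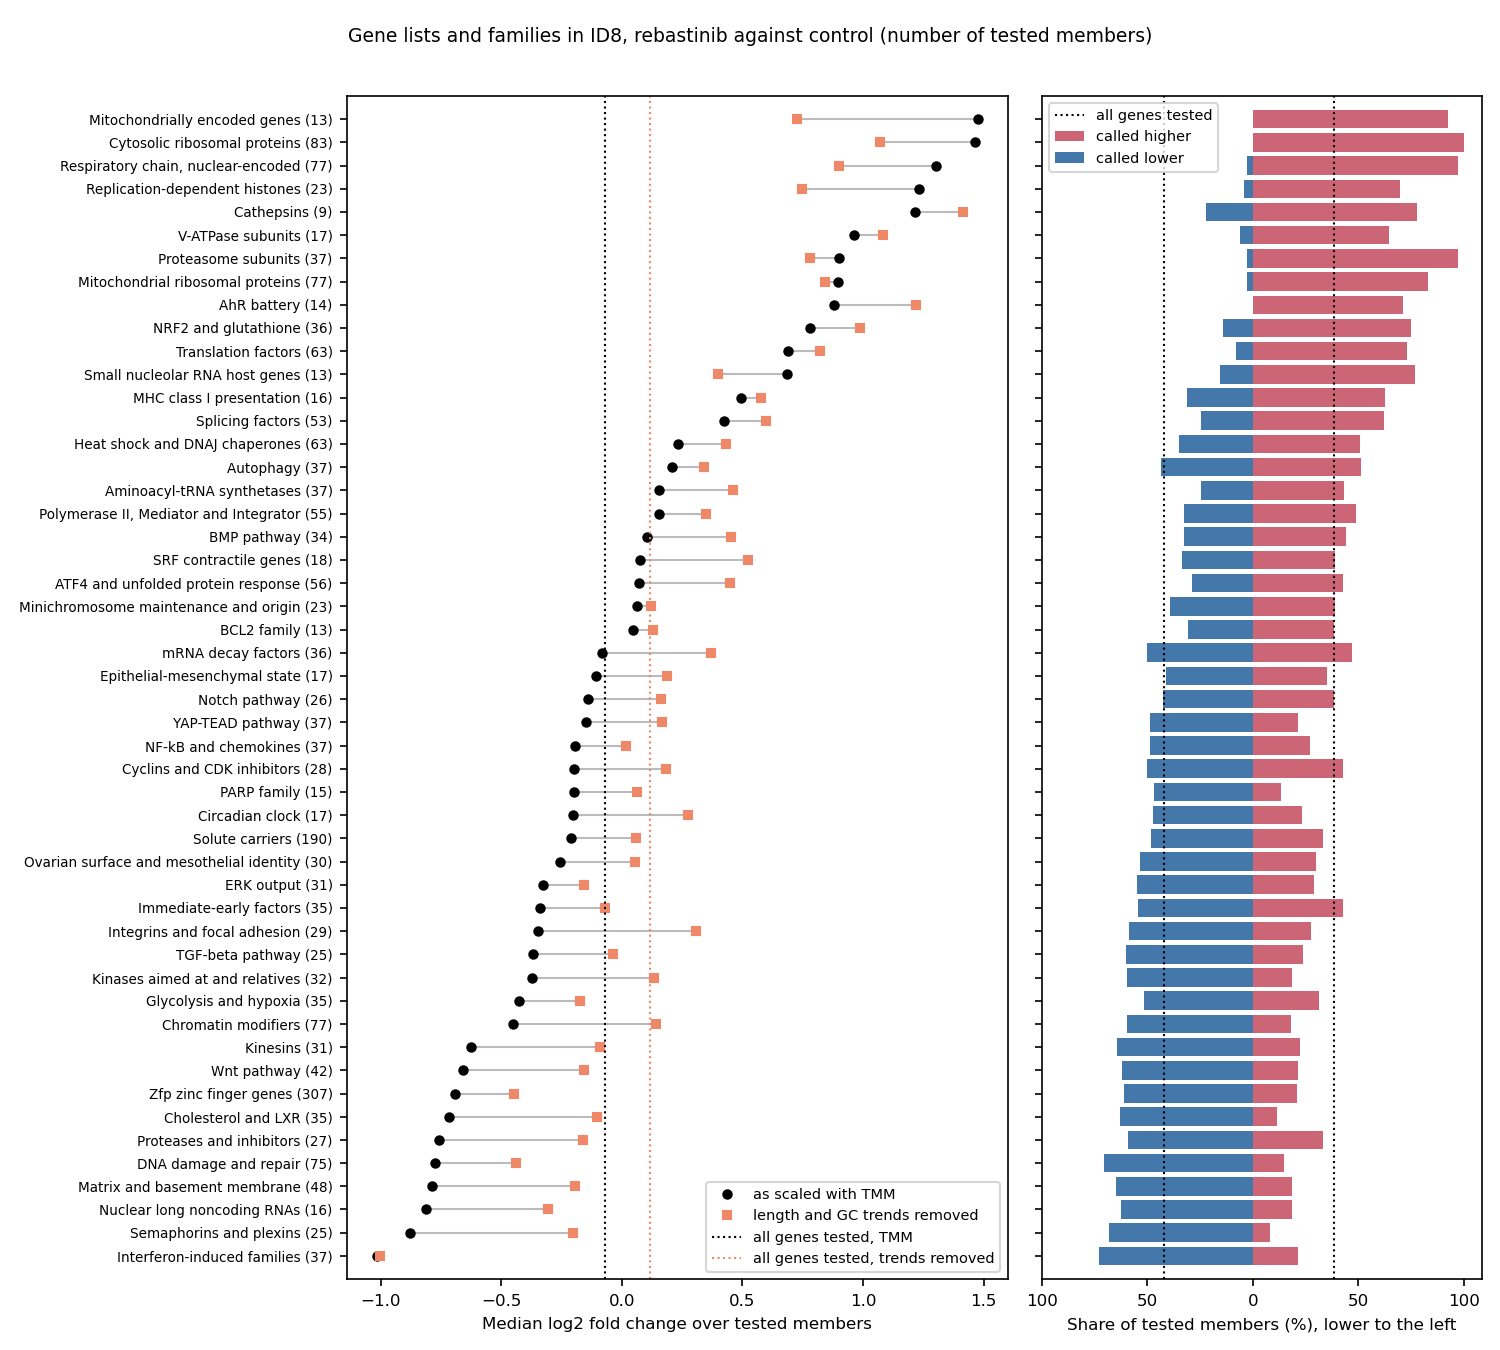
Gene lists and families in ID8 with the number of tested members. Left, median log2 fold change of rebastinib minus control over tested members with TMM scaling (black) and with length and GC trends removed (orange), with dotted lines at the medians of all genes (-0.07 and 0.12). Right, share of tested members called higher (red, to the right) and lower (blue, to the left), with dotted lines at 38.4% and 42%. Ribosomal and respiratory chain lists lie at the top, and 13 lists cross 0 with the trends removed. On library totals alone lists with small positive medians also turn negative, while the median of all genes moves to -0.50.

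DNA repair genes were largely lower. Of 75 tested genes 53 were lower and 11 higher, with a median of -0.78, and 25 were lower at the 2-fold minimum against none higher. With length and GC trends removed 45 were lower and 15 higher (median -0.44). Brca2, a gene of homologous recombination (chromosome 5, 150522630 to 150570329), stood at 46.4, 45.7 and 41.6 CPM in control and 2.44, 2.34 and 3.35 CPM with rebastinib (-4.01, SE 0.129, adjusted p = 7.81e-12). Brca1 went from 63.1 ± 1.93 to 14.1 ± 1.85 CPM (-2.15) and Rad50, of the complex that senses broken ends, from 81.6 ± 1.78 to 28.1 ± 0.981 CPM (-1.54). In the Fanconi group, which unhooks DNA crosslinks, 10 of 11 were lower: the nuclease scaffold gene Slx4 stood at 42.4, 42.3 and 39.8 CPM in control and 5.04, 4.98 and 4.92 CPM with rebastinib (-3.06), and Fancd2 (-2.17) and Fancb (-2.25) fell. Atm, the checkpoint kinase gene, fell from 56.3 ± 5.51 to 24.1 ± 2.304 CPM (-1.22), Prkdc, the end-joining kinase gene, from 27.4 ± 1.53 to 6.88 ± 1.34 CPM (-2.0001) and Lig3 from 82.2 ± 2.49 to 26.7 ± 1.42 CPM (-1.62). Ercc3, a helicase gene of transcription and excision repair, was one of the few to rise, from 43.5 ± 1.504 to 79.04 ± 1.702 CPM (0.86).

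Among PARP genes, whose products add ADP-ribose, 7 of 15 were lower and 2 higher, or 1 higher without control replicate 3 or rebastinib replicate 2. Parp14, which interferon induces, stood at 6.96, 5.44 and 5.72 CPM in control and 0.227, 0.185 and 0.268 CPM with rebastinib (-4.68), Parp4 fell (-1.68), and so did the DNA break sensor gene Parp2 from 28.3 ± 1.501 to 18.3 ± 0.655 CPM (-0.63). Parp9 and Parp10 share exons with abundant neighbours and are uncertain. With trends removed, 6 of the family were higher and 6 lower.

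Cell cycle genes were called in both directions (38.4% higher and 42% lower over all genes). Of 28 cyclin, CDK, inhibitor, RB and E2F genes 12 were higher and 14 lower, or 15 and 12 with trends removed and 5 and 16 on library totals alone. Ccnd1 rose while the related Ccnd2 fell from 519 ± 14.6 to 207 ± 14.6 CPM (-1.33). E2f8, which encodes a repressor of S-phase genes, fell from 55.1 ± 1.55 to 10.3 ± 1.56 CPM (-2.41), and so did the RB relatives Rbl1 (-1.24) and Rbl2 (-1.15). The inhibitor gene Cdkn1b, encoding p27, fell from 106 ± 6.03 to 55.8 ± 4.48 CPM (-0.92), while Cdkn2d rose from 22.2 ± 0.475 to 48.8 ± 6.43 CPM (1.13). Replication origin genes were divided, 9 higher and 9 lower of 23, or 0 and 15 on library totals alone. Mcm10 stood at 71.5, 76.2 and 75.3 CPM in control and 8.73, 11.4 and 10.9 CPM with rebastinib (-2.85) and Cdc45 fell from 43.7 ± 0.657 to 7.37 ± 1.29 CPM (-2.56), although Cdt1, the licensing factor gene, rose by 0.58, or by 0.14 without a call on library totals alone. Kinesin genes, which encode motors of the spindle and of transport, were lower in 20 of 31 and higher in 7 (median -0.62, or -0.09 with trends removed), with Kif14 going from 51.1 ± 3.75 to 11.4 ± 1.07 CPM (-2.16). Replication-dependent histone genes were higher in 16 of 23, such as Hist1h2bc, from 5.43 ± 0.603 to 23.1 ± 2.45 CPM (2.08). Messages of such genes mostly, but not always, end without a poly(A) tail. Most of the genes stood at a low level. When a mean of at least 5 CPM was required only 3 were tested, and all 3 were higher.

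Genes of ovarian surface and mesothelial identity were lower in 16 and higher in 9 of 30 tested (median -0.26), and 13 and 13 with trends removed. Wt1 (chromosome 2, 105126529 to 105173616) stood at 511, 499 and 477 CPM in control and 126, 125 and 148 CPM with rebastinib (-1.90, SE 0.0795, adjusted p = 7.18e-11). Krt19 fell from 1385 ± 72.5 to 806 ± 54.8 CPM (-0.78), and Msln, a surface antigen of ovarian tumours, rose from 220.1 ± 10.4 to 441 ± 27.3 CPM (1.001). Muc16, the gene of the CA125 mucin, stood at 14.9, 14.8 and 11.99 CPM in control and 0.510, 1.17 and 1.21 CPM with rebastinib (-3.83), and Lrrn4, a mesothelial surface gene, at 12.8, 14.1 and 12.7 CPM in control and 0.283, 0.738 and 0.447 CPM with rebastinib (-4.77). Both had all rebastinib libraries below all controls. Upk1b, a uroplakin gene of mesothelium, rose from 97.5 ± 2.46 to 259 ± 14.6 CPM (1.41), and the cadherin gene Cdh3 fell from 51.6 ± 2.396 to 12.6 ± 3.802 CPM (-2.04). Pax8, a factor of Müllerian epithelium, had 101 counts in control and 0 with rebastinib, at least 32.4-fold lower when the group is set to 3 counts.

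Of 17 genes of the epithelial-mesenchymal state 6 were higher and 7 lower, or 8 and 5 with trends removed, and related members moved apart. The shares of 35.3% and 41.2% are close to those over all genes (38.4% and 42%). The repressor gene Snai2 fell from 25.9 ± 0.364 to 6.86 ± 0.893 CPM (-1.91), while Snai1 rose from 4.46 ± 0.0644 to 11.1 ± 1.01 CPM (1.32). Vim, the vimentin gene, rose from 1184 ± 56.8 to 2171 ± 122 CPM (0.87), S100a4 from 2.33 ± 0.476 to 12.8 ± 4.36 CPM (2.44), and Fn1, the fibronectin gene, stood at 1449, 1332 and 1180.2 CPM in control and 309, 387 and 413 CPM with rebastinib (-1.84, SE 0.109, adjusted p = 1.82e-09). Matrix genes were lower in 31 of 48 and higher in 9 (median -0.79), but with trends removed in 23 and 21 (median -0.19). Nid1, a basement membrane linker gene, stood at 5.15, 4.75 and 5.198 CPM in control and 0.283, 0.308 and 0.179 CPM with rebastinib (-4.30), Col6a2 fell from 23.2 ± 1.704 to 4.72 ± 0.454 CPM (-2.30) and Col6a1 from 153 ± 9.35 to 42.1 ± 6.25 CPM (-1.86). The fibroblast markers, which include collagen genes, also summed lower with rebastinib, as given above, and the part of fibroblasts was not tested.

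Proteases, integrins and guidance receptors held deep falls and some rises. Of 27 protease and inhibitor genes 16 were lower and 9 higher. Adamts9, an aggrecan-cleaving protease gene, stood at 188, 179 and 164 CPM in control and 12.6, 16.5 and 18.5 CPM with rebastinib (-3.47, SE 0.115, adjusted p = 1.00e-11), Adamts1 fell from 17.1 ± 1.55 to 2.38 ± 0.708 CPM (-2.84) and the plasminogen activator gene Plat from 39.6 ± 0.715 to 9.68 ± 1.58 CPM (-2.04). In contrast Mmp13, a collagenase gene, rose from 10.95 ± 0.282 to 41.7 ± 1.55 CPM (1.93) and the inhibitor gene Timp1 from 36.2 ± 2.53 to 131 ± 12.6 CPM (1.85). Integrin and focal adhesion genes were lower in 17 of 29 and higher in 8, a balance that turned to 10 and 17 with trends removed. Itgb3 fell from 85.9 ± 6.62 to 13.2 ± 1.07 CPM (-2.69), Itga5, of the fibronectin receptor, from 159.5 ± 6.06 to 51.96 ± 8.51 CPM (-1.61), and Zyx, the zyxin gene, from 161 ± 6.96 to 53.5 ± 1.76 CPM (-1.59). Semaphorin and plexin genes were lower in 17 of 25 and higher in 2 (median -0.88, or -0.20 with trends removed). Sema4g stood at 159.8, 149.9 and 144 CPM in control and 12.6, 11.6 and 13.9 CPM with rebastinib (-3.57) and Sema4a fell (-2.01), whereas Sema4b rose from 35.5 ± 1.195 to 107 ± 7.03 CPM (1.59), so class 4 members went both ways.

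The contractile genes driven by SRF showed 7 higher and 6 lower of 18, or 13 and 3 with trends removed and 5 and 11 on library totals alone. The actin genes parted, Actb rising from 4091 ± 279 to 7137 ± 812 CPM (0.80) and Actg1 falling from 1014 ± 27.7 to 679.8 ± 5.696 CPM (-0.58).

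Among chromatin genes the balance turned with the length and GC trends, but the deepest falls did not. Of 77 tested modifiers 46 were lower and 14 higher (median -0.45), but with trends removed 31 were lower and 39 higher (median 0.14).  Setd1b, a histone H3 lysine methyltransferase gene, stood at 59.6, 52.8 and 45.04 CPM in control and 4.59, 4.98 and 4.52 CPM with rebastinib (-3.48, or -2.63 with trends removed), and Setdb1 fell from 65.2 ± 2.37 to 10.8 ± 0.788 CPM (-2.59). Kmt2d went from 273 ± 34.1 to 44.2 ± 2.39 CPM (-2.63), Nsd1 from 121 ± 7.79 to 19.2 ± 2.22 CPM (-2.65) and the demethylase gene Kdm6b from 68.8 ± 4.01 to 11.5 ± 0.977 CPM (-2.58). Zfp zinc finger genes, largely repressors of transcription, were lower in 187 of 307 and higher in 64 (median -0.69, or -0.45 with trends removed). Zfp90 fell from 20.8 ± 1.64 to 1.35 ± 0.0486 CPM (-3.94) and Zfp57, which guards imprints, from 43.9 ± 0.633 to 7.16 ± 1.47 CPM (-2.62), while Zfp622 rose from 62.9 ± 0.826 to 292 ± 33.6 CPM (2.21).

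Subunits of the transcription machinery were counted by complex. Of 12 RNA polymerase II subunit genes 11 were higher and 1 lower, such as Polr2d, from 22.6 ± 1.86 to 59.7 ± 7.07 CPM (1.40). Mediator genes were divided, with Med26 up from 14.99 ± 0.884 to 53.2 ± 0.956 CPM (1.82). Of 14 Integrator genes, whose complex cuts nascent RNA, 8 were lower and 3 higher, or 6 and 8 with trends removed. Ints6 stood at 37.3, 36.5 and 35.2 CPM in control and 1.93, 1.72 and 2.73 CPM with rebastinib (-4.06, SE 0.137, adjusted p = 1.19e-11) and Ints3 fell from 159 ± 3.08 to 25.5 ± 3.35 CPM (-2.65). Splicing factor genes were higher in 33 of 53 and lower in 13 (median 0.42), which library totals alone turn to 21 and 22 (median -0.01). The snRNP core had 16 of 20 higher and Snrpd2 going from 65.1 ± 7.48 to 199 ± 22.1 CPM (1.61), while Srsf3, an SR protein gene, fell from 231 ± 6.297 to 101 ± 6.09 CPM (-1.20).

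Long noncoding RNAs of the nucleus were lower in 10 and higher in 3 of 16 (median -0.81, or -0.31 with trends removed). Firre fell from 37.5 ± 2.33 to 9.71 ± 1.896 CPM (-1.95) and Kcnq1ot1, which silences an imprinted cluster, from 31.3 ± 2.77 to 9.92 ± 1.14 CPM (-1.65), whereas Pvt1, the neighbour of Myc, rose from 6.29 ± 0.536 to 19.9 ± 1.43 CPM (1.66). Host genes of small nucleolar RNAs were higher in 10 of 13, such as Snhg20, from 10.04 ± 0.102 to 64.6 ± 7.17 CPM (2.68). Of 36 message decay genes 17 were higher and 18 lower, or 21 and 12 with trends removed. Pan2, which encodes a poly(A)-trimming enzyme, fell from 30.9 ± 0.739 to 3.98 ± 0.277 CPM (-2.95), and Khsrp, which encodes a binder of AU-rich elements, rose from 318 ± 12.4 to 576 ± 20.9 CPM (0.86).

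Ribosomal protein and respiratory chain genes were almost all higher, and most translation factor genes were. All 83 tested cytosolic ribosomal protein genes were higher, with a median of 1.47, or 82 of them with a median of 1.07 once length and GC trends were removed. Rpl4 went from 1314 ± 93.2 to 3510.2 ± 277 CPM (1.42) and Rpl22 from 212 ± 21.4 to 771 ± 137 CPM (1.86). Reads shared between these genes and their processed pseudogenes are uncertain. Mitochondrial ribosomal protein genes were higher in 64 of 77 (median 0.90) and lower in 2, or of 4 without rebastinib replicate 1. On library totals alone 53 were higher and 14 lower, and with trends removed 67 and 6. Mrps2, which fell from 39.7 ± 1.51 to 7.901 ± 1.099 CPM (-2.33), was 1 of the 2. Nuclear-encoded respiratory chain genes were higher in 75 of 77 (median 1.30), such as Ndufa4, from 155 ± 12.9 to 458 ± 53.9 CPM (1.57), and 12 of 13 mitochondrially encoded genes were higher (median 1.48), such as mt-Nd1, from 4121 ± 212 to 12251 ± 1092 CPM (1.57). Translation factor genes were higher in 46 of 63 and lower in 5, or 33 and 18 on library totals alone. Eif5a rose from 1037 ± 37.4 to 3361 ± 489 CPM (1.70) and Eif5b from 207 ± 8.802 to 634 ± 72.7 CPM (1.62), while Eif2ak2, the RNA-sensing kinase gene that interferon induces, fell from 39.5 ± 2.37 to 9.67 ± 0.781 CPM (-2.03).

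Aminoacyl-tRNA synthetases, which charge tRNAs, act in the cytosol or the mitochondrion. Of 20 cytosolic genes 12 were higher and 3 lower, with Rars up from 207 ± 14.5 to 580.4 ± 47.9 CPM (1.49) and Kars from 240.2 ± 11.5 to 534 ± 21.2 CPM (1.15). Of 17 mitochondrial genes 4 were higher and 6 lower, but 10 and 4 with length and GC trends removed, against 16 and 2 of the cytosolic genes. Rars2 fell from 24.3 ± 1.26 to 6.25 ± 0.889 CPM (-1.95), while Lars2 rose as given above, at an uncertain level. The difference between both groups of synthetases was not tested. The whole list had a median of 0.15, which library totals alone turn to -0.28.

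Most genes of the degradation machinery were higher. Proteasome subunit genes were higher in 36 of 37 (median 0.90), and the proton pump genes of the lysosome in 11 of 17 (median 0.96). Psmb1 went from 168 ± 14.7 to 428 ± 54.7 CPM (1.35) and Atp6v1h from 59.9 ± 2.599 to 151 ± 4.62 CPM (1.33). Of 9 tested cathepsin genes 7 were higher and 2 lower. Ctsl, a lysosomal cysteine protease gene, stood at 146, 151 and 159 CPM in control and 597, 585 and 523 CPM with rebastinib (1.90, SE 0.0755, adjusted p = 4.30e-11), and Ctsd rose from 109 ± 9.79 to 303 ± 37.7 CPM (1.48). In the autophagy list 19 were higher and 16 lower of 37, or 12 and 21 on library totals alone. Map1lc3b rose by 1.42, with exons shared with Zcchc14 on the opposite strand, and Gabarap from 159 ± 11.3 to 451 ± 71.6 CPM (1.51), while the receptor gene Nbr1 fell from 106 ± 1.96 to 38.9 ± 1.796 CPM (-1.45) and the growth kinase gene Mtor also fell (-1.16).

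Stress response genes of the endoplasmic reticulum held a few deep falls. Of 56 genes 24 were higher and 16 lower, and at the 2-fold minimum 0 and 5. On library totals alone the balance was 12 and 33, beside 3540 and 8475 of 14829 over all genes. Chac1 stood at 78.3, 80.2 and 87.1 CPM in control and 3.4000, 3.38 and 3.08 CPM with rebastinib (-4.64, SE 0.103, adjusted p = 5.12e-13), and Trib3, a pseudokinase gene that ATF4 induces, fell from 117 ± 9.14 to 24.8 ± 1.29 CPM (-2.24). Xbp1, the splicing-activated factor gene, stood at 129, 127 and 132 CPM in control and 15.2, 16.9 and 16.1 CPM with rebastinib (-3.01). Derl1, of the export channel for misfolded proteins, rose from 160.3 ± 0.444 to 339.9 ± 8.73 CPM (1.08). Chaperone genes were higher in 32 of 63 and lower in 22, or 23 and 32 on library totals alone. Hspb1, the small heat shock gene HSP27, rose from 22.5 ± 1.59 to 85.6 ± 13.4 CPM (1.92) and the mitochondrial chaperone gene Hspa9 from 618 ± 18.8 to 1366 ± 80.7 CPM (1.14), while Hspa2 fell from 10.8 ± 0.280 to 2.697 ± 0.243 CPM (-1.996).

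Glycolytic enzymes and hypoxia-inducible genes were counted apart, and their difference was not tested. Of 17 glycolytic enzyme genes 9 were higher and 5 lower, while of 18 hypoxia-inducible genes 2 were higher and 13 lower, or 5 and 11 with trends removed (medians 0.37 and -1.05). Slc16a3, the lactate exporter gene, stood at 31.4, 26.97 and 27.3 CPM in control and 1.42, 1.23 and 1.21 CPM with rebastinib (-4.47, SE 0.142, adjusted p = 6.99e-12). Pdk1, which encodes a brake on pyruvate oxidation, fell from 44.01 ± 0.662 to 6.34 ± 0.821 CPM (-2.80), the hypoxia factor gene Epas1 from 38.6 ± 3.13 to 15.1 ± 2.07 CPM (-1.35) and Aldoc from 23.99 ± 1.99 to 5.36 ± 0.129 CPM (-2.16). Solute carrier genes were higher in 63 and lower in 92 of 190, or 82 and 66 with trends removed. The vitamin C transporter gene Slc23a2 rose from 26.4 ± 1.29 to 121 ± 5.26 CPM (2.20) and the thiamine transporter gene Slc19a2 from 29.6 ± 1.22 to 113 ± 8.104 CPM (1.93), and Slc27a6, a fatty acid carrier gene, fell from 41.5 ± 0.895 to 5.78 ± 0.586 CPM (-2.85).

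Cholesterol synthesis genes were lower in 12 of 19 and higher in 1 (median -0.72), and in 11 and 7 with trends removed. Nsdhl, a sterol dehydrogenase gene, fell from 88.9 ± 2.84 to 23.99 ± 1.36 CPM (-1.89), Pmvk also fell (-1.27), and so did Scd1, the stearoyl desaturase gene, from 813 ± 26.96 to 334 ± 33.3 CPM (-1.28). Insig1, which encodes the sterol-responsive anchor of SREBP, stood at 253, 255 and 250.4 CPM in control and 40.7, 38.02 and 48.7 CPM with rebastinib (-2.57, SE 0.0882, adjusted p = 1.33e-11), and Scap, its counterpart that escorts SREBP, rose from 73.3 ± 2.75 to 139 ± 2.05 CPM (0.92). Genes of the circadian clock were lower in 8 and higher in 4 of 17, or 6 and 10 with trends removed. Per3 fell from 8.78 ± 0.214 to 1.301 ± 0.320 CPM (-2.75) and Per2 from 17.7 ± 0.706 to 6.44 ± 1.09 CPM (-1.46), while the repressor gene Cry1 rose from 15.2 ± 1.099 to 25.1 ± 1.49 CPM (0.73).

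Interferon-induced genes had the lowest median of all lists, -1.01, which removal of length and GC trends left at -1.001. Of 37 tested members 27 were lower and 8 higher (42% and 38.4% over all genes). Helz2, a helicase coactivator gene, stood at 38.2, 36.7 and 34.05 CPM in control and 1.08, 1.29 and 1.34 CPM with rebastinib (-4.86, SE 0.133, adjusted p = 2.85e-12), and Stat2, the signal transducer of type I interferon, at 30.4, 28.2 and 27.8 CPM in control and 3.68, 3.57 and 4.38 CPM with rebastinib (-2.88). In both genes every rebastinib library lay below every control. Oasl2 fell from 10.9 ± 0.520 to 1.44 ± 0.319 CPM (-2.90) and Ifit2 from 7.596 ± 0.595 to 1.78 ± 0.269 CPM (-2.08), whereas Ifi30, a lysosomal thiol reductase gene, rose from 69.6 ± 5.76 to 161 ± 15.7 CPM (1.21). At a mean of at least 5 CPM 14 of 22 members were lower and 7 higher, with a median of -0.59. The list then no longer had the lowest median, since that of semaphorins and plexins, among others, was lower (-0.97).

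Antigen presentation and inflammatory genes were divided. Of 16 class I presentation genes 10 were higher and 5 lower, or 6 and 6 on library totals alone. B2m, the light chain gene, rose from 129 ± 6.67 to 285 ± 15.1 CPM (1.15) and H2-D1, a heavy chain gene with close paralogs, from 81.4 ± 2.25 to 154 ± 9.43 CPM (0.92), while Tap1, which encodes part of the peptide pump, fell from 7.79 ± 0.803 to 1.78 ± 0.360 CPM (-2.15). Of 37 NF-kB and chemokine genes 10 were higher and 18 lower, or 16 and 13 with trends removed. The subunit genes Rela (-1.31), Nfkb2 (-1.28) and Relb (-1.76) fell, and the inhibitor gene Nfkbie fell from 21.2 ± 2.12 to 2.603 ± 0.552 CPM (-3.05). Cxcl12, a chemokine that binds CXCR4, rose from 24.3 ± 0.790 to 54.3 ± 5.603 CPM (1.16), and Il33, an alarmin gene, fell from 8.96 ± 0.635 to 1.67 ± 0.659 CPM (-2.43). Cd14, a coreceptor for bacterial lipid that is also on the macrophage list, rose from 4.46 ± 0.412 to 17.002 ± 1.101 CPM (1.93).

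The BCL2 family holds guardians of survival and genes that promote death, and both kinds moved in both directions. Of 13 tested genes 5 were higher and 4 lower, or 5 and 8 on library totals alone. The shares of 38.5% and 30.8% do not exceed those over all genes by much or at all (38.4% and 42%). Among guardians, Bcl2 fell from 29.6 ± 2.36 to 9.396 ± 1.16 CPM (-1.65) and Bcl2l2 from 44.1 ± 1.5001 to 9.499 ± 1.26 CPM (-2.21), whereas Bcl2l1, encoding BCL-XL, rose from 98.6 ± 3.97 to 215 ± 17.5 CPM (1.13). Among the genes that promote death, Bax rose from 33.01 ± 4.06 to 75.4 ± 12.4 CPM (1.19) and Bbc3, encoding PUMA, from 9.96 ± 0.506 to 22.2 ± 1.53 CPM (1.15), and Bmf stood at 21.9, 25.4 and 24.7 CPM in control and 4.02, 2.95 and 2.995 CPM with rebastinib (-2.86).

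The responses of 8 AhR and BMP pathway genes were compared with those of PMJ2R macrophages in a fit over all 12 libraries, in which 52.4% of 16566 genes differed (21.8% higher and 30.6% lower in PMJ2R). All 8 differed past the threshold. Id2 rose in ID8 by 3.54 and went from 100.2 ± 4.09 to 33.5 ± 1.37 CPM in PMJ2R, a difference of -5.12 (SE 0.119, adjusted p = 2.52e-19). Id3 differed by -4.12 (SE 0.135) and Id1 by -1.65 (SE 0.146). Tiparp had a higher mean with rebastinib in both lines, 38.2 ± 3.19 and 80.2 ± 1.03 CPM in PMJ2R, and the responses differed by -1.05 (SE 0.107, adjusted p = 1.58e-08). Nqo1 stood under 1 CPM in PMJ2R and differed by -2.86 (SE 0.317). Ahrr had 76 counts in PMJ2R control and 1 with rebastinib, so its difference of -9.01 depends on the prior count, although its direction is opposite in the lines. Smad6 differed by -2.28 (SE 0.348) and Smad7 by 1.38 (SE 0.179). Each had the same direction in both lines, at -0.41 in ID8 and -2.70 in PMJ2R for Smad6 and at 0.39 and 1.77 for Smad7. Smad6 in PMJ2R rests on 168 counts in control and 14 with rebastinib. The ID8 values of both genes depend on the processing, as given above.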

How the data were processed

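RNA sequencing counts were analysed for 12 libraries, of which the 6 of ID8 carry the report. The authors deposited raw whole-number counts per Ensembl gene in a single table. Tools listed in the submitters' processing notes are STAR 2.6.1c, featureCounts, FastQC and DESeq2, with genome build GRCm38. For the annotation, the strand setting and multi-mapping reads nothing is given in the sources used here, and they bear on antisense genes, gene copies and pseudogenes. Identifiers without a symbol in GENCODE vM21 were 181 of 55421 and held 0.00205% of ID8 counts.

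Counts were tested with edgeR 4.0.16 (R 4.3.3): filterByExpr, TMM factors, a quasi-likelihood fit of the 6 ID8 libraries with no covariate, Benjamini-Hochberg adjustment over all genes tested and a threshold of 0.05, and glmTreat for the 2-fold minimum. The scripts were tested on simulated data. Length and GC trends were smooth curves (mgcv 1.9.3) fitted to each library and passed to the fit as offsets. The comparison of lines used all 12 libraries with an interaction term. Alternatives were other scalings, other filters, DESeq2 1.42.0, a replicate block and leaving out each library. Intervals and floors cover counting error only. Start-site windows came from RefSeq, build GRCm38.p6.

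Named genes were the 12 largest rises and the 12 largest falls among protein-coding genes at a mean of 20 CPM or more, the members of the AhR battery and BMP pathway, the angiopoietin receptors, and up to 6 members of each other list, or 3 of each role, with the smallest p. A few of the genes and lists so named are not reported here. Neighbours that share exons were added after their counts were seen. The members and lists were chosen with earlier results of these data known.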

Additional observations from a re-analysis of the deposited data

Results flagged for a closer look

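The response to rebastinib differed between ID8 and PMJ2R for the 8 AhR and BMP pathway genes compared, by the interaction term of edgeR's fit over 12 libraries. As PMJ2R minus ID8 on the log2 scale, the difference was -9.01 for Ahrr, -1.05 for Tiparp, -2.86 for Nqo1, -1.65 for Id1, -5.12 for Id2, -4.12 for Id3, -2.28 for Smad6 and 1.38 for Smad7. These genes were chosen with their ID8 responses known, and 52.4% of all 16566 genes differed in the same test.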

How the results depend on the processing

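Genes called numbered 11917, and 11478 to 12233 when each library was left out in turn; at the 2-fold minimum they numbered 4357, and 4052 to 4769. With a mean of at least 5 CPM required, fewer genes were tested and 2504 of 10479 passed the 2-fold minimum. Under that filter 5 of 20 tested BMP pathway genes, 14 of 22 interferon-induced, 10 of 19 protease and 121 of 200 Zfp genes were lower. The main fit called 11 of 34, 27 of 37, 16 of 27 and 187 of 307 lower. Replicate numbers did not pair the libraries (correlations of -0.20, -0.02 and -0.52 between libraries of the same number), and with the replicate block 11418 genes were called, 4095 of them at 2-fold, or 11780 and 3929 with length and GC trends removed as well. DESeq2 called 12225 of 20415 genes. The line difference held 8684 genes, 8104 to 8950 with a library left out and 8116 with the replicate block. The rise in share of counts, in percentage points with a library left out, was 4.28 to 5.33 for ribosomal protein genes, 1.83 to 2.03 for mitochondrially encoded genes, 0.835 to 1.11 for genes overlapping ribosomal RNA and 5.78 to 6.55 for the 50 most abundant genes. Of 251 tested genes named, 8 turned direction under an alternative. Library totals alone gave -0.40 for Bmp4, -0.27 for Bmpr1a, -0.40 for Ptges3, -0.38 for Smad4 and -0.039 for Smad7. Removal of length and GC trends gave 0.32 for Ahr, 0.26 for Cyp1b1 and 0.26 for Smurf2, and with the block 0.33, 0.25 and 0.26. The cause was not tested. Depth limits genes under about 1 CPM.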
